A study of Mus musculus with 11 samples.

Results

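Messenger RNA of 10 enzymes that build membrane phospholipids or exchange their acyl chains was examined in clonal mouse progenitor lines with and without tafazzin. The members were chosen by name as enzymes of this pathway, with earlier results of these data known. The share called among them is therefore a description and not a test of the pathway. All 10 were found by Ensembl ID among the 37583 genes counted. The samples were 11 lines of ER-Hoxb8 granulocyte-monocyte progenitors, cells that normally give rise to neutrophils and monocytes. They were made from C57BL/6 fetal liver at embryonic day 15.5 and kept immature by a retroviral fusion of Hoxb8 with the hormone-binding part of the estrogen receptor. Every group therefore carried the ER-Hoxb8 construct and grew in 0.5 uM beta-estradiol with stem cell factor from conditioned medium, at about 50 ng/ml. The wild-type (WT) group had 6 clones, titled 1A to 1C and 2D to 2F, and the Taz knockout (KO) group had 5, titled 3H, 3I and 4J to 4L. Values given clone by clone follow this order of titles. Each line was expanded from a single cell, so a clone is 1 line and not 1 animal, and the labels do not say what the number in its title stands for. The p-values therefore measure only the spread between these clones.

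Phospholipids are assembled at the endoplasmic reticulum and then remodelled. In the Kennedy pathways, choline or ethanolamine is phosphorylated, activated with CTP and transferred to diacylglycerol, which gives phosphatidylcholine or phosphatidylethanolamine. Phosphatidylserine is made by exchanging the head group of an existing phospholipid, and in mitochondria it is decarboxylated to phosphatidylethanolamine. In the Lands cycle, a phospholipase removes an acyl chain and a lysophospholipid acyltransferase attaches another, which sets how unsaturated the membrane is. Tafazzin, the product of Taz, moves acyl chains between such phospholipids and cardiolipin in mitochondria.

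Two-sided comparison of KO with WT clones found 2 of the 10 enzymes lower in KO clones and none higher. Pcyt2, which activates phosphoethanolamine with CTP, fell by 21.7%, and Lpcat3, the acyltransferase that places polyunsaturated chains in phosphatidylcholine and phosphatidylethanolamine, fell by 20.6%. The enzymes of phosphatidylserine synthesis and decarboxylation, the ethanolamine kinase and the other 4 acyltransferases did not pass the test. A gene was called when its Benjamini-Hochberg adjusted p over all 11900 tested genes was under 0.05 in edgeR's quasi-likelihood test. By that rule 2.29% of all tested genes were lower and 2.76% higher in KO clones. All 10 members passed the filter on low counts, with 61 to 24065 reads per clone. Their median log2 fold change was -0.04, against -0.0059 for all tested genes, and 7 of the 10 values were negative. Of all 11900 tested genes, 6141 had a negative value. None of the members was called higher in edgeR, DESeq2 or limma-voom, and at an unadjusted p under 0.05 the count in edgeR was 0 higher and 2 lower. By that looser rule 2417 of all 11900 tested genes passed in edgeR, 1225 of them lower.

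**Figure D1:**
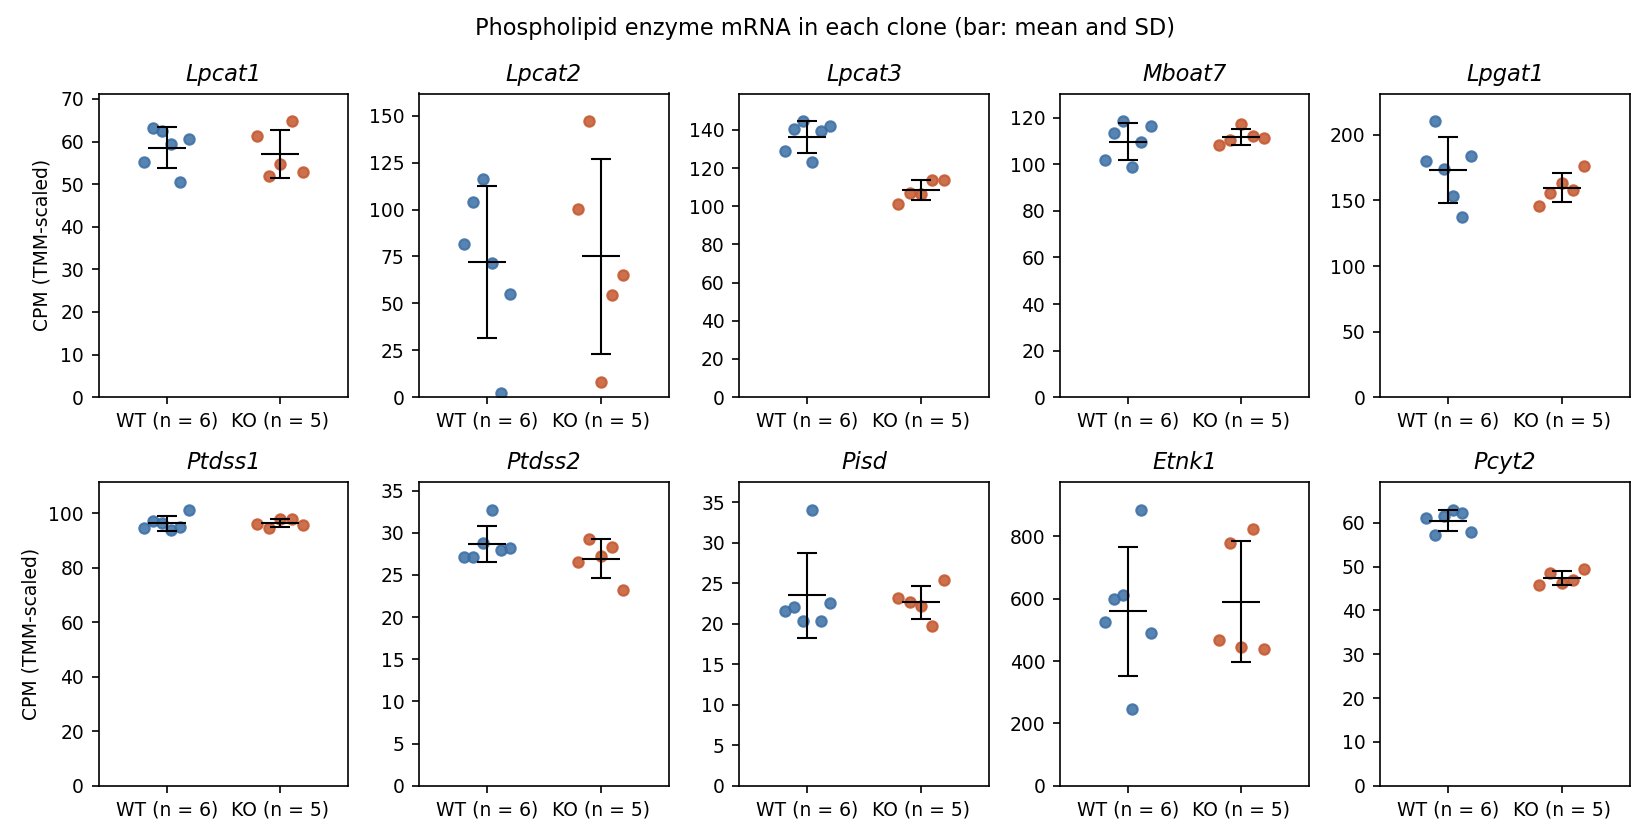
mRNA level of each enzyme in CPM (read counts as a share of the library, on sizes scaled by the trimmed mean of M-values) in 6 WT and 5 KO clones. Points are clones and bars are the mean and SD. For Lpcat3 and Pcyt2 every KO clone lies below every WT clone, while in the other 8 panels the genotypes overlap.

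The libraries held 21966954 to 27431544 gene counts in WT and 19778119 to 23658158 in KO clones, and WT libraries were deeper (two-sided exact permutation test over all splits of the 11 clones, p = 0.0303). Taz, the check of the genotype labels, was at 37.0 to 43.8 CPM in WT and 2.21 to 4.09 CPM in KO clones, so all 11 libraries matched their labels. The labelled cell type was checked by 9 progenitor genes, whose summed level was 11790 to 21749 CPM in WT and 10700 to 19150 CPM in KO clones. All 9 were expressed, though Elane ranged from 2.26 CPM in KO 4K to 825 CPM in WT 2D. Markers of other cell types were expressed too. A list of 6 mast cell and basophil genes summed to 1050 to 3984 CPM in WT and 2050 to 4786 CPM in KO clones. The monocyte gene Ccr2 was at 363 to 1783 CPM over all clones. WT 2D stood apart in the summed level of 9 late neutrophil genes, at 1504 CPM, while the other 10 clones lay between 14.96 and 141 CPM. The 7 B-lymphoid markers together were at 32.8 to 85.6 CPM in WT and 6.07 to 28.5 CPM in KO clones, without overlap. Of these, Pax5 had no read, Vpreb1 stayed under 1 CPM, and Ebf1 was at 22.9 to 42.2 CPM in WT and 3.56 to 26.6 CPM in KO clones. Cd79b, the 1 marker of this list called lower (adjusted p = 0.0170 in edgeR), was at 1.33 to 18.3 CPM in WT and 0.329 to 0.850 CPM in KO clones. Igll1 did not overlap either, at 1.91 to 45.02 CPM in WT and 0.637 to 1.05 CPM in KO clones. Of 4 hepatocyte markers, Alb, Apoa1 and Ttr stayed under 1 CPM in every clone, and Afp was at 0 to 1.40 CPM, highest in KO 3I. The part of depth and of the B-lymphoid genes in the results was not tested.

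Lpcat3, whose product prefers arachidonoyl and linoleoyl chains, had the highest mean level per exon length of the 5 acyltransferases in both genotypes. By CPM alone Lpgat1 was higher, with a WT mean of 173 CPM against 136 CPM. In WT clones Lpcat3 ranged from 123 to 145 CPM with a median of 139.9 CPM. The KO clones held 101, 107, 106, 114 and 114 CPM. The highest KO clone was below the lowest WT clone, 2D. The means were 136 ± 8.38 CPM (SD, n = 6) and 108 ± 5.30 CPM (SD, n = 5), a log2 fold change of -0.33 ± 0.050 (SE; adjusted p = 0.00528 in edgeR; 95% interval -0.44 to -0.22). The call held when any single clone was left out (log2 fold change -0.36 to -0.31; highest adjusted p = 0.0209). It ended when all clones of title number 1, 3 or 4 were left out, with log2 fold changes of -0.32, -0.30 and -0.38 and adjusted p = 0.0885, 0.0706 and 0.112. Counting ignored strand, and 10.2% of the exon length of Lpcat3 lies across from Emg1, a gene on the opposite strand. Emg1 itself had a log2 fold change of -0.07 ± 0.079 (SE; adjusted p = 0.646 in edgeR).

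Mboat7, which like Lpcat3 belongs to the membrane-bound O-acyltransferases but adds arachidonic acid to lysophosphatidylinositol, differed little between clones. It ranged from 98.7 to 119 CPM in WT clones (median 112 CPM) and measured 108, 111, 117, 112 and 111 CPM in the KO clones. The KO values all lay within the WT range. The log2 fold change was 0.027 ± 0.051 (SE; adjusted p = 0.817 in edgeR), and its 95% interval of -0.09 to 0.14 does not reach the fall measured for Lpcat3. The sign turned without WT 2D, where the value was -0.0023. On the opposite strand Tsen34 overlaps 3.32% of its exon length (log2 fold change -0.19 ± 0.079, SE; adjusted p = 0.191 in edgeR).

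Lpcat1, an acyltransferase known for the dipalmitoyl phosphatidylcholine of lung surfactant, ranged from 50.6 to 63.3 CPM in WT clones, with a median of 59.96 CPM. The KO clones held 61.3, 51.9, 54.8, 64.8 and 52.9 CPM. The genotypes overlapped almost fully, and the log2 fold change was -0.04 ± 0.076 (SE; adjusted p = 0.843 in edgeR; 95% interval -0.20 to 0.13).

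Lpgat1, an acyltransferase first described with lysophosphatidylglycerol, phosphatidylglycerol being the precursor of cardiolipin, was at 138 to 210.5 CPM in WT clones (median 177 CPM). In the KO clones it was at 146, 155, 164, 158 and 176 CPM. The WT clones spread wider than the KO clones and enclosed them. The log2 fold change was -0.12 ± 0.097 (SE; adjusted p = 0.547 in edgeR; 95% interval -0.33 to 0.10).

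Lpcat2, which also makes platelet-activating factor in inflammatory cells, varied more among clones than any other member. Its WT values were 81.7, 104, 116, 71.8, 2.25 and 55.2 CPM in title order. The KO values were 100.5, 147, 8.07, 54.6 and 65.4 CPM in title order. One clone of each genotype, WT 2E and KO 4J, was far below the rest, and the highest clone held 65.5 times the level of the lowest. The SD within genotypes on the log2 CPM scale was 1.92, above the 95th percentile of 1.20 among all tested genes. The log2 fold change of 0.07 ± 0.78 (SE; adjusted p = 0.974 in edgeR) had a 95% interval from -1.65 to 1.78, so a change of the size seen for Lpcat3 was not detectable. Its sign also turned with single clones (-0.33 to 0.36).

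**Figure D2:**
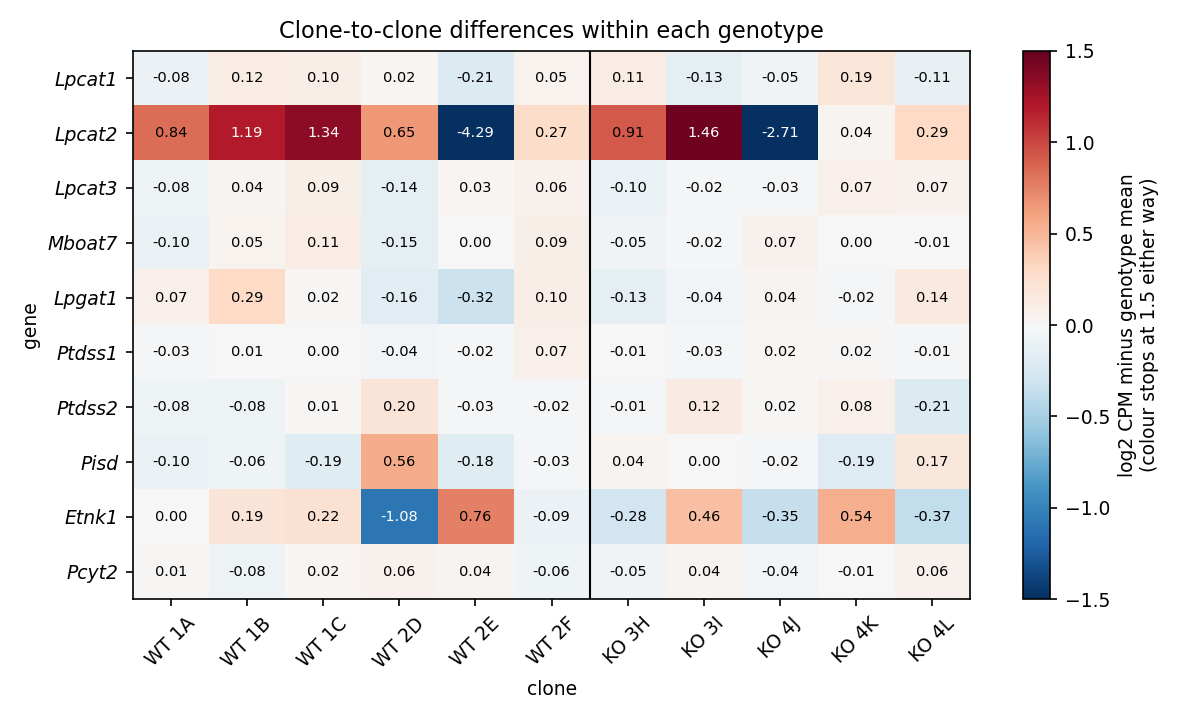
Each cell gives a clone's log2 CPM minus the mean of its genotype, for 10 genes in 11 clones, with colour limits at 1.5 either way. Lpcat2 in WT 2E (-4.29) and KO 4J (-2.71) lies furthest from the mean, Etnk1 is at -1.08 in WT 2D, and Ptdss1 and Pcyt2 stay within 0.08 of the mean in every clone.

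None of the 3 phosphatidylserine enzymes passed the test. Ptdss1, which exchanges the choline of phosphatidylcholine for serine, had the narrowest spread of the 10 genes, with an SD within genotypes of 0.034 on the log2 scale against a median of 0.15 for all tested genes. It ranged from 93.6 to 101 CPM in WT clones (median 95.7 CPM) and was at 95.9, 94.5, 97.9, 97.7 and 95.5 CPM in the KO clones. All KO clones fell inside the WT range. The means were 96.3 ± 2.75 CPM (SD, n = 6) and 96.3 ± 1.47 CPM (SD, n = 5), and the 95% interval of the log2 fold change ran from -0.06 to 0.06 (edgeR adjusted p = 0.999). Of its exon length, 5.33% lies across from Mterf3 on the opposite strand, a gene with a log2 fold change of 0.19 ± 0.052 (SE; adjusted p = 0.0668 in edgeR).

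Ptdss2, which uses phosphatidylethanolamine in the same exchange, was at 27.1 to 32.8 CPM in WT clones (median 28.1 CPM). The KO clones were at 26.6, 29.2, 27.3, 28.3 and 23.2 CPM. The highest WT clone was 2D and the lowest KO clone 4L, and the rest overlapped. The log2 fold change was -0.09 ± 0.070 (SE; adjusted p = 0.521 in edgeR; 95% interval -0.24 to 0.07).

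Pisd, the decarboxylase of the inner mitochondrial membrane that turns phosphatidylserine into phosphatidylethanolamine, was at 20.3 to 34.1 CPM in WT clones (median 21.8 CPM). The KO clones held 23.2, 22.6, 22.2, 19.7 and 25.5 CPM. The upper WT value was WT 2D, and the other 5 WT clones did not exceed 22.6 CPM. The log2 fold change was -0.05 ± 0.13 (SE; adjusted p = 0.872 in edgeR; 95% interval -0.35 to 0.24) and turned to 0.08 ± 0.069 without WT 2D (adjusted p = 0.541). Pisd has transcribed copies, and reads could be split among them. On the same strand Gm20671, with a mean count of 0 in both genotypes, overlaps 20.1% of the exon length of Pisd. Reads there could have been left out as ambiguous. The level of Pisd is therefore uncertain. The copy Pisd-ps1 was counted at 25.1 to 70.8 CPM and Pisd-ps2 at 5.41 to 13.1 CPM, and WT 2D was the highest clone for both copies as well.

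In the ethanolamine pathway, the second enzyme fell while the first varied between clones of both genotypes. Etnk1, the ethanolamine kinase, had WT values of 525, 598, 612, 248, 886 and 491 CPM in title order. Its KO values were 465.95, 778, 445, 825 and 439 CPM in title order. The genotypes overlapped broadly, with a log2 fold change of 0.08 ± 0.29 (SE; adjusted p = 0.918 in edgeR; 95% interval -0.57 to 0.73). WT 2E, KO 4K and KO 3I held the highest levels. The same clones had the lowest summed level of the 9 progenitor genes, at 11790, 10700 and 11989 CPM against 15052 CPM or more elsewhere. More than any other gene, the granule gene Mpo made up that sum (5347 to 13248 CPM). Within the same list the stem cell factor receptor gene Kit was highest in these clones, at 780.2, 866 and 800.2 CPM against 515 to 727 CPM elsewhere. The transcription factor gene Myb was highest there too, at 1157, 1143 and 1126 CPM. The transcription factor gene Spi1 went the other way, lowest in these clones at 119, 112 and 113 CPM against 132 CPM or more elsewhere. Mpo, Elane, Prtn3 and Ctsg were also lowest there, while Cebpa and Gfi1 overlapped the other clones. These clones also had the highest summed level of 6 mast cell and basophil genes, at 3984, 4786 and 4379 CPM against at most 3231 CPM. Cpa3 made up most of that sum (856 to 4326 CPM over all clones), and Mcpt8 and Tpsb2 were highest in these clones too. Prss34 (170, 83.7 and 91.0 CPM, against 252 CPM in WT 1A) and Ms4a2 (182, 75.2 and 111 CPM, against 129 CPM in KO 4L) overlapped the other clones. WT 2D, lowest in Etnk1, was highest in the progenitor sum and in the granule genes Mpo (13248 CPM) and Elane (825 CPM), and lowest of all clones in Kit (515 CPM) and Myb (995 CPM). In bulk RNA, fewer cells of a type and less RNA per cell cannot be told apart, and the part of these marker genes' differences in the Etnk1 levels was not tested.

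Pcyt2 makes CDP-ethanolamine, the step generally regarded as rate-limiting for phosphatidylethanolamine synthesis by this route. It ranged from 57.3 to 63.0 CPM in WT clones, with a median of 61.2 CPM. The KO clones were at 45.7, 48.5, 46.2, 47.0 and 49.3 CPM. Both groups were tight, and the gap between the highest KO and the lowest WT clone was wider than the whole range of either genotype. The means were 60.5 ± 2.35 CPM (SD, n = 6) and 47.4 ± 1.55 CPM (SD, n = 5), a log2 fold change of -0.35 ± 0.038 (SE; adjusted p = 0.00117 in edgeR; 95% interval -0.44 to -0.27). The call held without any single clone (log2 fold change -0.37 to -0.34; highest adjusted p = 0.00547) and without title number 1, 2 or 3. Without title number 4, which leaves 2 KO clones, the log2 fold change was again -0.35 and the adjusted p was 0.0871. Among the 10 enzymes, only Pcyt2 and Lpcat3 had no overlap between genotypes, a pattern found in 5.99% of all tested genes.

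**Figure D3:**
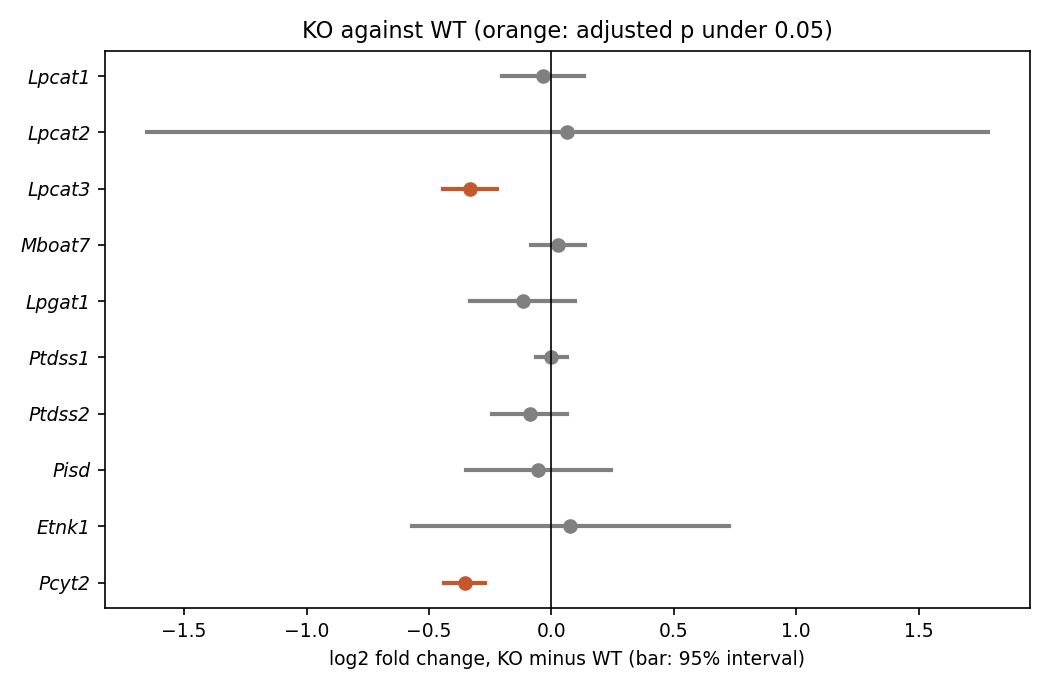
Log2 fold change of each enzyme in KO against WT clones (point) with its 95% interval (bar) from edgeR's quasi-likelihood fit; orange marks an adjusted p under 0.05. Pcyt2 (-0.35) and Lpcat3 (-0.33) lie clear of 0, Ptdss1 has the narrowest interval and Lpcat2 the widest.

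The other genes of phospholipid metabolism were taken from 9 lists, whose 60 matched genes included 43 that passed the filter. Of these 43, 1 fell and none rose, with a median log2 fold change of -0.05. By the same rule 2.29% of all tested genes were lower and 2.76% higher. The gene that fell was Pcyt1a, which activates phosphocholine with CTP and is for phosphatidylcholine what Pcyt2 is for phosphatidylethanolamine. It ranged from 197 to 243 CPM in WT clones (median 212 CPM) and was at 165, 130.2, 145, 174 and 159 CPM in the KO clones. No KO clone reached the lowest WT clone. The log2 fold change was -0.49 ± 0.079 (SE; adjusted p = 0.00745 in edgeR), and the call held without any single clone. It ended without title number 1, 2 or 4, with log2 fold changes of -0.56, -0.42 and -0.55 and adjusted p = 0.0738, 0.0589 and 0.128.

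Neighbouring steps of both Kennedy pathways did not pass the test. The choline kinases Chka (-0.07 ± 0.074, SE) and Chkb (-0.10 ± 0.10), the choline phosphotransferase Chpt1 (-0.0033 ± 0.13) and the dual phosphotransferase Cept1 (0.14 ± 0.11) had adjusted p from 0.522 to 0.993 in edgeR. Selenoi, the ethanolamine phosphotransferase that follows Pcyt2, had a log2 fold change of 0.16 ± 0.063 (SE; adjusted p = 0.188 in edgeR). Without WT 2D, the call reached Selenoi (0.21 ± 0.046, higher; adjusted p = 0.0287), Pcyt1b (-1.10 ± 0.21, lower; 0.0170) and Acsl4 (-0.16 ± 0.036, lower; 0.0336) beside Pcyt1a. DESeq2 called Cdipt higher and Acsl3, Acsl4 and Pcyt1a lower. Over all tested genes, 739 of 11826 were called without WT 2D and 1261 of 11900 in DESeq2.

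In the lists without a call the most abundant genes had small differences. Gpat4, an enzyme of the first acylation of glycerol 3-phosphate, had a log2 fold change of -0.11 ± 0.058 (SE; adjusted p = 0.309 in edgeR), and the phosphatidic acid phosphatase Lpin2 one of -0.23 ± 0.13 (0.374). Cds2, which makes CDP-diacylglycerol, stood at -0.07 ± 0.098 (adjusted p = 0.731), and the lysocardiolipin acyltransferase Lclat1 at -0.025 ± 0.047 (0.817). The cytosolic phospholipase A2 gene Pla2g4a had 0.13 ± 0.066 (adjusted p = 0.289), the acyl-CoA synthetase Acsl5 0.07 ± 0.036 (0.316) and the choline transporter Slc44a2 -0.13 ± 0.075 (0.389).

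**Figure D4:**
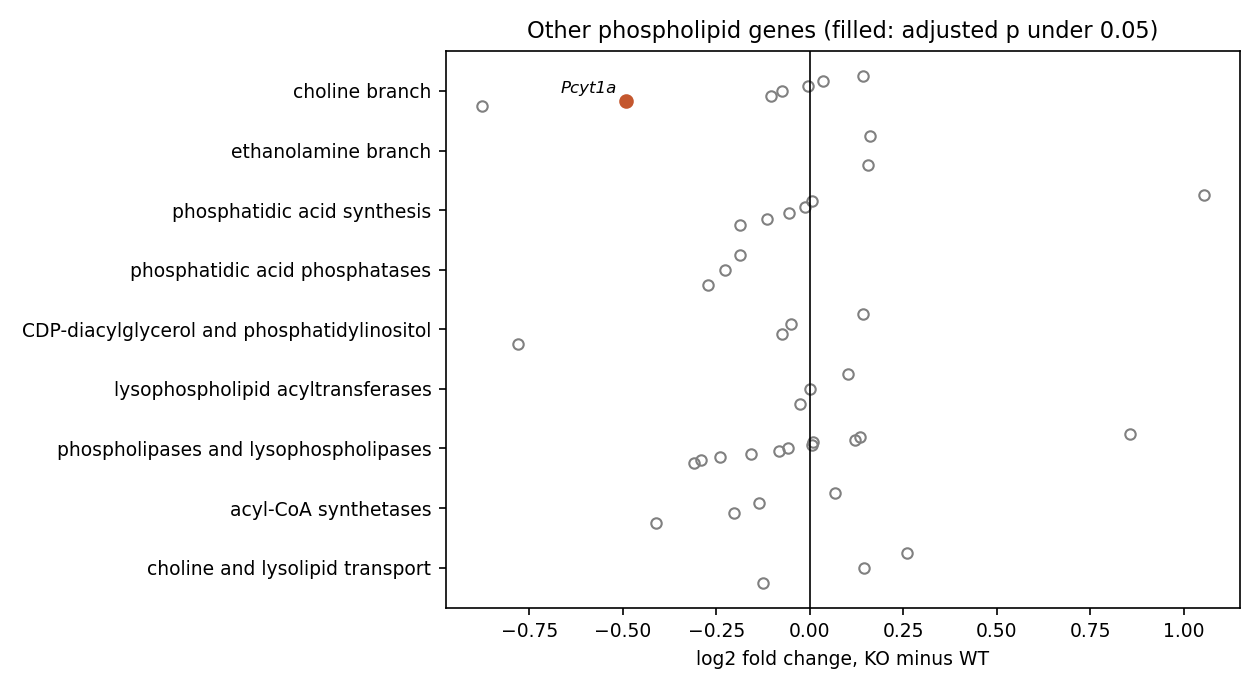
Log2 fold change, KO minus WT, of the 43 tested genes in 9 other lists of phospholipid metabolism, 1 point per gene; the filled point is called. Pcyt1a (-0.49) is the filled point, and some open points lie further from 0, among them Pcyt1b (-0.88) and Agpat3 (1.05), which averaged under 5 CPM in each genotype.

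The 300-base promoter windows of RefSeq (250 bases before to 50 after a start site, build GRCm38.p6) were read for 8 of the 10 members by symbol, and Ptdss1 and Pcyt2 were not matched. Windows of Lpcat3, which fell, and of Pcyt1a are shown because both genes were lower in KO clones. The 250 bases before the start are printed 5′ to 3′ in the direction of transcription, with Lpcat3 on the plus strand of chromosome 6 (chr6:124662854-124663103) and Pcyt1a on the plus strand of chromosome 16 (chr16:32430671-32430920). Capitals mark matches, on either strand, to CCAAT (the CCAAT box, bound by NF-Y) or to TCACNCCAC (a core of the sterol regulatory element).
Lpcat3: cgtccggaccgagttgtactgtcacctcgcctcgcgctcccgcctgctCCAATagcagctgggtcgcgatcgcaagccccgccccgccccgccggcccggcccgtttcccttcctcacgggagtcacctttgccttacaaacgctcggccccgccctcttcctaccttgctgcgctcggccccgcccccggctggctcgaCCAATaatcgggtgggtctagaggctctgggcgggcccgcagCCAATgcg
Pcyt1a: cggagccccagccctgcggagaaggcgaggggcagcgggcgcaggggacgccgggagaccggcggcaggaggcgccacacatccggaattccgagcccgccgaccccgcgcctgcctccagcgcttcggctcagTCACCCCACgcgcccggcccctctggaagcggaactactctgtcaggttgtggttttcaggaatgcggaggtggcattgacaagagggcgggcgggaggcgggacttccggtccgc

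The Lpcat3 window held 4 matches to CCAAT, 3 of them in the stretch shown, and at least 4 occur in 1.06% of the 32851 windows of the table. Among the other members, 1 match each was found for Lpcat2 and for 1 of the 2 Pisd windows, and 37.4% of all windows hold at least 1. The table has 3 windows for Pcyt1a, of which the first is shown. Its match to TCACNCCAC starts at base -116 relative to that start site, the same bases lie at -215 in the overlapping second window, and the third has no match. This motif is in 1.24% of all windows and in none of the 10 windows of the members. No member window matched CACGTG (an E-box, in 7.15% of all windows) or TGATGNAA (a C/EBP-ATF response element, in 3.97%). A match describes the letters and does not show binding.

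Levels were compared between genes after division by exon length (CPM per kb). This length joined all annotated exons of a gene, for example 14151 bases for Etnk1 and 8339 bases for Mboat7. It can exceed the length of a single mRNA, so the order depends on the annotation. In WT clones the order by mean was Lpcat3 (41.8 ± 2.57 CPM per kb, SD, n = 6), Etnk1 (39.6 ± 14.6), Lpgat1 (22.8 ± 3.33), Ptdss1 (22.4 ± 0.64) and Lpcat2 (21.2 ± 12.0). Pcyt2 (13.9 ± 0.54), Mboat7 (13.2 ± 0.96) and Lpcat1 (12.6 ± 1.05) followed, then Ptdss2 (5.09 ± 0.38) and Pisd (4.09 ± 0.92). Only the step from Lpcat1 down to Ptdss2 separated neighbours without overlap of their WT clones, and all other neighbours overlapped. In KO clones Lpcat3 was at 33.2 ± 1.62 CPM per kb (SD, n = 5), below the KO mean of Etnk1, 41.7 ± 13.7. Lpcat2 reached 43.4 CPM per kb in KO 3I, above every KO clone of Lpcat3 (31.0 to 34.8 CPM per kb). Ptdss1 mRNA was thus more abundant per length than Ptdss2 mRNA in every clone of both genotypes (21.8 to 23.6 against 4.13 to 5.82 CPM per kb).

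**Figure D5:**
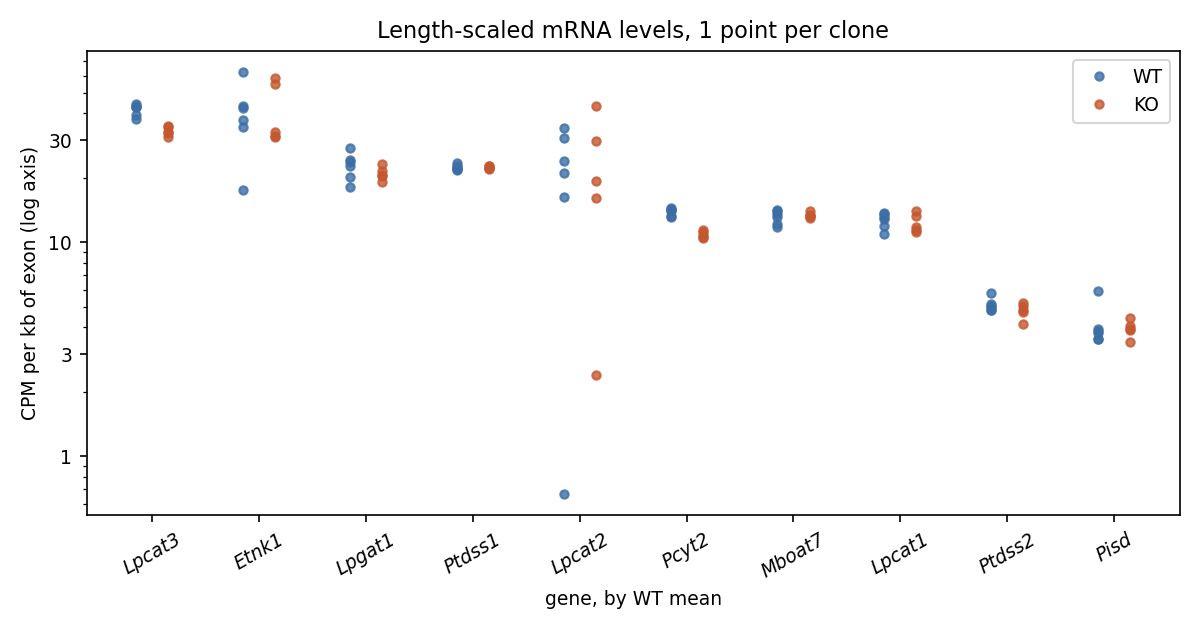
CPM per kb of exon (log axis) for the 10 enzymes, ordered by WT mean, with 1 point per clone, WT in blue and KO in orange. Lpcat3 and Etnk1 lead, Ptdss2 and Pisd are lowest, and the points of Lpcat2 spread from 0.663 to 43.4.

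Between the title numbers within a genotype none of the 10 members was called in edgeR. For WT number 2 against 1, 0% of all 11900 tested genes were called, and for KO number 4 against 3 also 0%. At an unadjusted p under 0.05 the counts over all genes were 372 and 161, with no member among them. In limma-voom no gene was called either, with 383 and 167 genes and 1 and 0 members at an unadjusted p under 0.05. Pcyt2 differed by a log2 value of 0.027 ± 0.056 (SE) between WT numbers and 0.011 ± 0.063 between KO numbers, and Lpcat3 by -0.03 ± 0.068 and 0.09 ± 0.077. These differences were smaller than the difference of the same gene between genotypes.

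After the mean of each genotype was subtracted, the 45 pairs of members had Pearson correlations of log2 CPM over the 11 clones from -0.86 to 0.80, with a median of -0.06. Over all pairs of tested genes the median was -0.001, and 90% of values lay between -0.70 and 0.71, so the median of the members was near that of all pairs. Between the 2 genes that fell, r was -0.11. Among the members Lpcat3 was closest to Mboat7 (r = 0.80), and Pcyt2 was most opposed to Ptdss1 (r = -0.72). All such values share the 11 libraries and are given as a description. Of 9297 other genes with a mean of at least 5 CPM, those most like Pcyt2 were Gpld1 (r = 0.93), Fam234b (0.90) and Pank4 (0.87), and those most like Lpcat3 were Baz2b (0.97), Rbm5 (0.95) and Fam193b (0.92). None of these 6 was called between genotypes in edgeR (adjusted p from 0.278 to 0.961).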

How the data were processed

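PolyA RNA of each of the 11 clones went into strand-specific libraries, per the labels' protocols. For each clone the authors deposited a file of raw counts by Ensembl gene ID, with no pooling. STAR, HTSeq, edgeR and build mm9 are named per the submitters' processing notes, and the files' names mark counting as unstranded. Reads where genes on opposite strands overlap therefore cannot be told apart by strand, and could have been left out as ambiguous. The counter's totals that name no gene were left out of library sizes; reads in no gene were 5.41 to 6.94% and ambiguous reads 2.70 to 2.93% of gene counts plus these totals. Symbols (32860 of 37583 IDs, 99.6% of counts), overlaps and exon lengths came from GENCODE M21 (GRCm38), used for names and lengths.

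KO was set against WT with the robust quasi-likelihood test of edgeR 4.0.16 in R 4.3.3 (TMM, filterByExpr, Benjamini-Hochberg adjustment over all tested genes). TMM factors entered the CPM, and 2 was the prior count for log2 CPM. A standard error is the size of the log2 fold change divided by the root of F. Title numbers were compared in a model of 4 means. Every pair of libraries of 1 genotype differed by more than counting noise, with a chi-square per gene of at least 15.2. The 25 alternative settings used RLE and upper-quartile scaling, 2 filters, DESeq2 1.42.0, limma 3.58.1, a non-robust fit, title numbers as means or as a random block, omission of each clone, of each title number and of the 10 most abundant genes. The fits were tested on simulated data.

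The members and lists were chosen with earlier results of these data known. Named genes were the 10 members, Taz, called genes of the other lists or their most abundant gene, and the 3 genes nearest to each called member. The choline and ethanolamine steps beside Pcyt1a and Pcyt2, the overlapping genes, the Pisd copies, the marker genes, Acsl3, Acsl4, Cdipt, Pcyt1b, Agpat3 and the genes of the closing observations were named after their values were seen, and the CCAAT count of 4 was set then too.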

Additional observations from a re-analysis of the deposited data

Results flagged for a closer look

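Among 20 groups of clones examined (10 members in 2 genotypes), 2 held a clone far from the others by Dixon's criterion applied to CPM, and chance flags about 1 in 20 groups. Both were WT 2D. Pisd was at 34.1 CPM in WT 2D against 20.3 to 22.6 CPM in the other 5 WT clones (gap 0.832 of the range, limit 0.625). Ptdss2 was at 32.8 CPM in WT 2D against 27.1 to 28.8 CPM in the other 5 (gap 0.691 of the range). The same clone had the highest late neutrophil gene sum, 1504 CPM, and the part of that difference in these values was not tested. On the CPM scale the low Lpcat2 values of WT 2E (2.25 CPM) and KO 4J (8.07 CPM) were not flagged, and log2 values were not examined by this rule.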

How the results depend on the processing

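The count of members called lower was 2 in edgeR and moved to 1 without title number 1 or 3 and to 0 without title number 4; in the other 22 of 25 settings it was 2. No paired analysis was possible because the genotypes share no title number. With the title number as a random block the estimated correlation was negative (-0.21), so clones of 1 number were no more alike than others, and that fit called 1963 genes against 601, with 4 of the other phospholipid genes higher and 3 lower. Over all genes the calls moved from 601 to 329 without a filter, 1261 in DESeq2, 307 with title-number means, 240 (without KO 3I) to 739 (without WT 2D) over omissions of 1 clone, and 45, 296, 92 and 32 without title number 1, 2, 3 and 4. The cause of these changes was not tested. In 7 uncalled members the log2 fold change turned sign. For Ptdss1 it was 0.0030 with upper-quartile scaling, 0.0020 with the stricter filter, 0.00040 in limma-voom, 0.0024 with the block, 0.0038 without title number 2, 0.0075 without 3, and -0.0087 to 0.015 over omissions of 1 clone. Lpcat2 was -0.42 without title number 2, -0.76 without 3, and -0.33 to 0.36 over such omissions. Pisd was 0.087 without title number 2 and -0.098 to 0.083, Etnk1 -0.076 to 0.25 and Mboat7 -0.0023 to 0.049 over them. Lpcat1 was 0.0082 and Lpgat1 0.014 without title number 1. The lowest count of a member in a clone was 61 reads, of Lpcat2, and the part of depth in the results was not tested.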

Other observations

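Some other lysophospholipid and head-group genes differed more between clones of 1 genotype than between genotypes. Mboat1, an acyltransferase of the Lpcat3 family that acts on lysophosphatidylserine and lysophosphatidylethanolamine, was at 5.80, 3.67, 17.6, 16.4, 7.99 and 13.0 CPM in the WT clones in title order (1A to 1C, 2D to 2F). In the KO clones (3H, 3I, 4J to 4L) it was at 13.6, 0.255, 24.6, 1.27 and 17.9 CPM. KO 3I and 4K were the lowest of all clones, and both were among the clones highest in Etnk1. Slc44a1, a choline and ethanolamine transporter, was at 0.907 CPM in WT 2D against 6.72 to 14.5 CPM in the other 10 clones, and Pcyt1b at 0.735 CPM in WT 2D against 1.68 to 6.85 CPM. For Pcyt1b the remaining WT clones held 3.82 to 6.85 CPM, above the KO range of 1.68 to 3.06 CPM. Without WT 2D it was called lower in KO clones (log2 fold change -1.10, adjusted p = 0.0170 in edgeR).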
